A study of Mus musculus with 4 samples.

Results

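The genes of the aminoacyl-tRNA synthetases and of the scaffold proteins Aimp1 and Aimp2 were examined in mouse tumor-initiating hepatocytes. They were chosen by symbol alone: a capital letter followed by ars or ars2, together with Eprs, Farsa, Farsb, Tarsl2, Aimp1 and Aimp2. The rule found 40 of 16211 listed genes, and all 40 had at least 100 reads in at least 1 library. Of these, 21 encode cytosolic enzymes, 17 encode mitochondrial enzymes (the symbols ending in ars2), and 2 encode scaffold proteins. Aimp2 and Tarsl2 also end in 2 but are not mitochondrial enzymes, so Tarsl2 was placed with the cytosolic enzymes and Aimp2 with the scaffold.

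An aminoacyl-tRNA synthetase joins an amino acid to its tRNA, which the ribosome then reads against the codon. Animal cells hold a cytosolic set of these enzymes and a mitochondrial set, both encoded in the nucleus. The glycine and lysine enzymes (Gars and Kars) serve both compartments from the same gene. Several cytosolic enzymes join Aimp1, Aimp2 and Eef1e1 in the multisynthetase complex. Many cytosolic synthetase genes are targets of ATF4, the transcription factor that responds to amino acid shortage and endoplasmic reticulum stress, and the tryptophan enzyme Wars is also induced by interferon gamma.

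The cells, of strain C57BL/6, carried a control short hairpin RNA or a hairpin against H19, an imprinted long noncoding RNA. Each condition had 1 mRNA library, with 33578868 reads in the control against 34061172 in the library that the labels call H19 knockdown, here the knockdown-labelled library. The sources used here do not give the culture time or the number of clones behind a library. With 1 library per condition there is no measure of the spread between cultures. No p-value was computed, no difference has a replicate check, and each interval covers counting error only.

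H19 itself had 43 reads in the control and 40 in the knockdown-labelled library, a ratio of 0.931 with a 95% counting interval of 0.589 to 1.46. The targeted gene therefore did not bear out the label, and every direction below refers to that label. Of 10 hepatocyte markers all were listed, led by the keratin Krt8 (41277 and 39585 reads) and the apolipoprotein Apob (37279 and 30259), while albumin (Alb) had 129 and 88. Ttr (78 and 51), Afp (75 and 44) and Apoa1 (58 and 87) were lower still. All 7 progenitor and tumor-initiating cell markers were listed, led by Spp1 (72614 and 73248) and the keratin Krt19 (29919 and 39984). Cd24a had 17252 and 18684 reads and Cd44 12498 and 12588, while Prom1 had 802 and 762, Sox9 122 and 109 and Epcam 12 and 11. Markers of other cells were low: the 5 listed of 6 macrophage genes summed to 320 and 238 reads, 0 of 5 lymphocyte genes were listed, and endothelial and fibroblast markers summed to 61 and 61 and to 94 and 66.

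The mRNAs of the cytosolic set stood well above those of the mitochondrial set in both libraries. Their median control reads were 6823 and 889, against 1178 over all genes with at least 100 reads in 1 library. Levels between genes are given as CPM (reads scaled to the total of the library) per kilobase of transcript, using for each gene the GENCODE M1 transcript with the longest coding part. The cytosolic enzymes had a median level of 70.0 in the control and 70.5 in the knockdown-labelled library, against 10.3 and 10.3 for the mitochondrial enzymes. Per kilobase of coding sequence the control medians were 79.1 and 16.3. Together the 40 genes took 0.560% and 0.578% of all reads.

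The highest levels belonged to the glycine enzyme Gars (213 in the control and 192 in the knockdown-labelled library), the serine enzyme Sars (210 and 208) and the asparagine enzyme Nars (169 and 177). The same 3 genes led when reads were divided by coding length alone, with Nars first. Yars (23.2 and 22.6), the tyrosine enzyme, was the second lowest of the cytosolic set. The lowest was Tarsl2 (2.58 and 2.94), a second threonine enzyme beside Tars (98.8 and 103). Farsa and Farsb encode the catalytic and the partner subunit of the phenylalanine enzyme, and their levels were 35.2 and 29.2 in the control and 43.0 and 33.5 in the knockdown-labelled library.

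**Figure D1:**
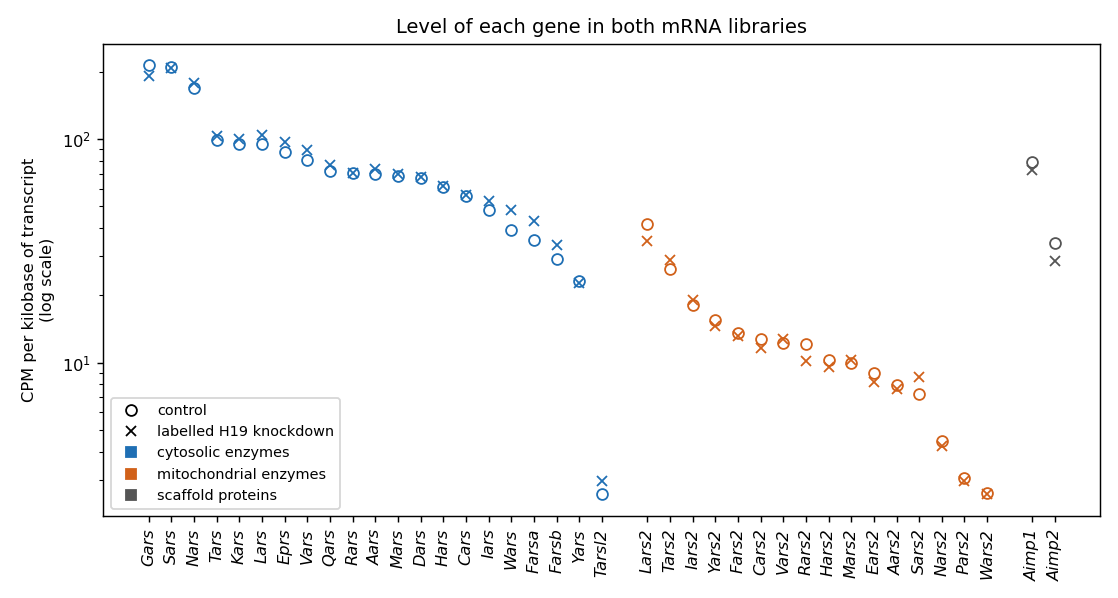
CPM per kilobase of transcript (log scale) for 39 of the 40 genes in the control (circles) and in the knockdown-labelled library (crosses), by compartment. The cytosolic enzymes lie mostly above the mitochondrial ones, with Tarsl2 at 2.58 in the control as the exception at the bottom, and no gene shown is 1.5-fold apart between the libraries.

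The 8 enzymes of the multisynthetase complex (Dars, Eprs, Iars, Kars, Lars, Mars, Qars and Rars) lay within a narrow band of levels, from 48.1 (Iars) to 95.2 (Kars) in the control, with a highest over lowest ratio of 1.98. The band was as narrow in the knockdown-labelled library (ratio 1.97) and per coding length (1.98). The 13 other cytosolic enzymes spanned 2.58 to 213, a ratio of 82.5. Of these others Cars (55.7), Hars (60.9), Aars (70.0) and Vars (80.4) lay inside the same band. The control medians were 71.1 for the complex enzymes and 60.9 for the others. The complex enzymes' levels had a standard deviation of 0.33 on the log2 scale in the control, against 1.68 for the others. Tarsl2 carries much of that spread: without it the 12 others ran from 23.2 (Yars) to 213, a ratio of 9.18, with a standard deviation of 1.09. Of the complex's non-catalytic members, Aimp1 was at 78.5, inside the band, while Aimp2 at 34.1 and Eef1e1 at 38.6 lay below it.

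Among the mitochondrial enzymes the leucine enzyme Lars2 was highest, at 41.9 and 35.0, followed by the threonine enzyme Tars2 at 26.1 and 28.8 and the isoleucine enzyme Iars2 at 18.1 and 19.1. The lowest were the tryptophan enzyme Wars2 at 2.62 and 2.58 and the proline enzyme Pars2 at 3.06 and 2.95. In 14 amino acids a cytosolic gene could be paired with a mitochondrial gene, taking Tars for threonine, and the cytosolic level was the higher in both libraries in all 14 pairs. Tarsl2, the other cytosolic threonine enzyme, lay below Tars2 in both libraries. The median ratio of cytosolic to mitochondrial level was 6.24 in the control and 6.63 in the knockdown-labelled library, or 4.80 in the control per coding length. The ratio was lowest for tyrosine (Yars over Yars2, 1.5) and highest for asparagine (Nars over Nars2, 38.1), with serine next at 29.0.

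Between the 2 libraries the synthetase genes differed little. The difference is given as the log2 ratio of the knockdown-labelled library over the control after scaling, so that 0 means no difference and 0.26 means 1.2-fold. The log2 ratios of all 40 genes lay between -0.24 and 0.31, with a median of 0.04. Over the 11412 genes with at least 100 reads in 1 library the median was 0.01. No member was 1.5-fold or 2-fold apart in either direction, where 1.31% of all these genes were 1.5-fold higher and 1.39% lower, and 0.202% were 2-fold higher and 0.105% lower. At 1.2-fold, 3 members were higher (Wars, Farsa and Sars2) and 0 were lower, against 10.3% and 9.89% of all genes, so the synthetases held no more such genes than the background.

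The counts on either side of 0 differed between the compartments, a difference that 1 library per condition does not allow to be tested. Of the 21 cytosolic enzymes 19 had a ratio above 0, with a median of 0.09, while 51.9% of all genes were above 0. Among genes with control reads in the same range as these enzymes the share above 0 was 52.5%. Of the 17 mitochondrial enzymes 6 were above 0, with a median of -0.03, against 52.6% of genes in their own read range. The medians of the compartments differed by 0.12. Both scaffold genes were below 0. As a group of summed reads, the cytosolic enzymes had 161161 and 170485 reads and the mitochondrial enzymes 22560 and 22298.

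The mitochondrial median depended on the genes with few reads. Of the 10 mitochondrial enzymes with under 1000 reads in both libraries 1 was above 0, and of the 7 with at least 1000 reads 5 were above 0, with a median of 0.08. With at least 1000 reads required, the difference between the compartments was 0.0069. Among all genes 47.8% of those with 100 to under 1000 reads and 54.9% of those with at least 1000 reads were above 0. The cytosolic set kept its direction at this minimum, with 18 of 20 above 0.

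**Figure D2:**
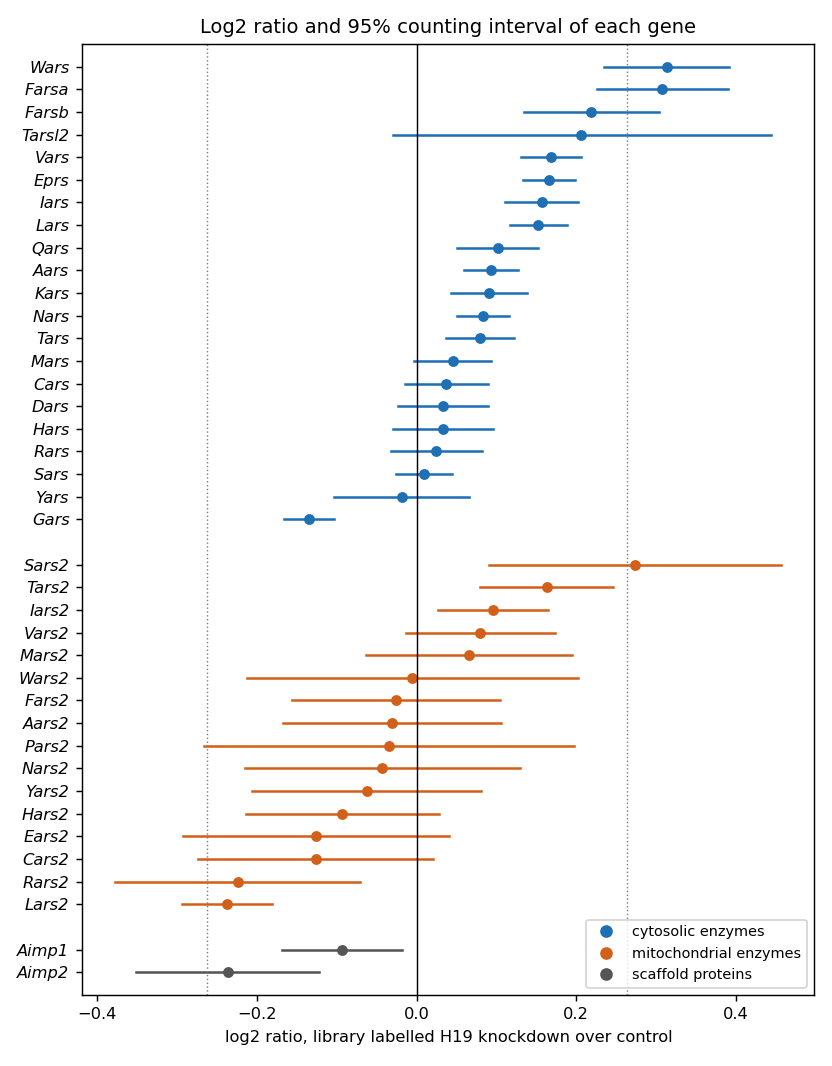
Log2 ratio of the knockdown-labelled library over the control for 39 of the 40 genes, with 95% counting intervals as bars and dotted lines at 1.2-fold. Of the cytosolic enzymes 19 of 21 lie right of 0, of the mitochondrial enzymes 5 of the 16 shown, and of the scaffold genes 0 of 2.

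Counting error bounds each value separately. The interval lay wholly above 0 for 16 of 40 genes, where 28.0% of all genes did, and wholly below 0 for 5 of 40, where 24.1% did. In the cytosolic set 12 of 21 intervals were wholly above 0 and 1 was wholly below, against 29.5% and 24.8% of genes in the same read range. In the mitochondrial set 4 of 17 were wholly above and 2 wholly below, against 28.6% and 23.9% of genes in theirs. Genes in the cytosolic range had a median of 1448 control reads, against 6823 for the cytosolic enzymes. For the mitochondrial range these medians were 1324 and 889. Intervals narrow as reads rise, so these shares were not matched for depth. An interval that excludes 0 separates these 2 libraries and not the conditions. The standard deviation of the log2 ratio was 0.11 over the cytosolic and 0.15 over the mitochondrial enzymes. It was 0.20 over the genes in either read range, and 0.17 over all genes with 1000 to 10000 control reads.

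**Figure D3:**
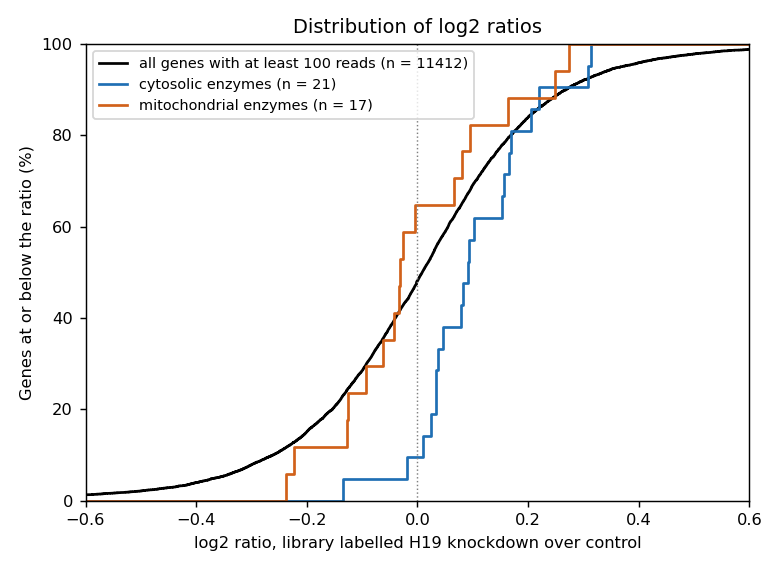
Cumulative share of genes (%) at or below each log2 ratio, for all genes with at least 100 reads (black), cytosolic (blue) and mitochondrial enzymes (orange). At 0 the blue line holds 2 of 21 genes and the orange line 11 of 17, while 48.1% of all genes lie below 0.

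Among the cytosolic enzymes the tryptophan enzyme Wars had the highest ratio, with 2398 reads in the control and 2983 in the knockdown-labelled library (log2 ratio 0.31, interval 0.24 to 0.39). Wars lies on chromosome 12 (chr12:108860030-108894175, GRCm38), whose genes had a median log2 ratio of 0.28, and with that median subtracted Wars was at 0.04. The interferon response list, to which Wars is linked by its induction, lay mostly below 0: 10 of 11 members with at least 100 reads were below 0, with a median of -0.43. In that list Oas1a had 343 and 180 reads (-0.93), Psmb8, an immunoproteasome subunit, 1325 and 838 (-0.66), Ifit1 246 and 158 (-0.64) and Psmb9 399 and 282 (-0.50). Of the 5 listed macrophage markers, Lyz2 had 132 and 53 reads (-1.30) and Csf1r 34 and 14 (-1.22), while Cd68 had 118 and 140 (0.24), Ptprc 22 and 17, and Cd74 14 and 14. The summed marker reads were 320 and 238, with Adgre1 not listed, and their part in the interferon list's values was not tested.

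The phenylalanine enzyme followed. Farsa (chr8:84856969-84869257) had 2158 and 2674 reads (0.31, interval 0.23 to 0.39), and Farsb (chr1:78417958-78488897), its partner subunit, had 2090 and 2435 reads (0.22, interval 0.13 to 0.30). Both subunits were thus higher in the knockdown-labelled library beyond counting error, and with chromosome medians subtracted they were at 0.27 and 0.20. Tarsl2 had 277 and 320 reads, a ratio of 0.21 whose interval reached from -0.03 to 0.44.

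Enzymes of the multisynthetase complex were all above 0, from 0.02 to 0.17. Eprs, the fused glutamate and proline enzyme, had 14188 and 15934 reads (0.17). Iars, for isoleucine, had 7152 and 7980 (0.16), and Lars, for leucine, 12300 and 13688 (0.15). Qars, for glutamine, had 6047 and 6496 (0.10), and Kars, for lysine, 6995 and 7458 (0.09). The intervals of these 5 genes lay wholly above 0, and those of Mars, Dars and Rars, for methionine, aspartate and arginine, included 0. With chromosome medians subtracted, 6 of the 8 were above 0.

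The ratios of the non-catalytic proteins of the complex were all below 0. Aimp1, the scaffold of the arginine and glutamine enzymes, had 2957 and 2774 reads (-0.09, interval -0.17 to -0.02). Aimp2, the central scaffold, had 1358 and 1154 reads (-0.24, interval -0.35 to -0.12). Eef1e1, also called Aimp3, had 1336 and 1247 reads (-0.10), with an interval of -0.21 to 0.01.

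Outside the complex the valine enzyme Vars had 10935 and 12304 reads (0.17), the alanine enzyme Aars 13509 and 14425 (0.09), Nars 14971 and 15873 (0.08) and Tars 8745 and 9249 (0.08), all with intervals above 0. Cars, Hars and Sars, for cysteine, histidine and serine, lay between 0.01 and 0.04 with intervals that included 0. The exceptions were Yars, with 2268 and 2241 reads (-0.02, interval -0.10 to 0.07), and Gars, with 17110 and 15603 reads (-0.13, interval -0.17 to -0.10). Gars was the only cytosolic enzyme whose interval lay wholly below 0. Gars lies on chromosome 6 and Yars on chromosome 4, whose medians were -0.10 and -0.18, and with these subtracted Gars was at -0.04 and Yars at 0.16.

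Among the mitochondrial enzymes the serine enzyme Sars2 had 452 and 547 reads (0.27, interval 0.09 to 0.46). Tars2 followed with 2195 and 2460 reads (0.16) and Iars2 with 3330 and 3562 (0.10), both with intervals above 0.

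At the other end, Lars2 (chr9:123366927-123462675) had 5454 and 4631 reads (-0.24, interval -0.29 to -0.18), and the arginine enzyme Rars2 (chr4:34614957-34660167) had 757 and 649 (-0.22, interval -0.38 to -0.07). With chromosome medians subtracted Lars2 was at -0.26, while Rars2, on chromosome 4, was at -0.05. A further 11 mitochondrial enzymes lay between -0.13 and 0.08, and all 11 intervals included 0. They are Aars2, Cars2, Ears2, Fars2, Hars2, Mars2, Nars2, Pars2, Vars2, Wars2 and Yars2, with 306 to 1929 reads. Of the 13 mitochondrially encoded mRNAs, whose translation uses these enzymes, 9 were listed. Not listed were mt-Nd3, mt-Nd4l, mt-Atp6 and mt-Atp8, and mt-Co2 (18 and 25 reads) and mt-Co3 (41 and 38) had under 100 reads. The reason for these low counts was not tested. All 7 with at least 100 reads were above 0, where 51.9% of all genes were. These 7 had a median of 0.35, with mt-Co1 (118919 and 124968 reads) the lowest at 0.07. The part of these mRNAs in the mitochondrial enzymes' ratios was not tested.

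Enzymes for the same amino acid were then set side by side. In 10 of 14 pairs the cytosolic ratio was the higher and in 4 the mitochondrial ratio was, with a median difference of 0.11. With chromosome medians subtracted it was again 10 of 14, with a median of 0.08. The counting intervals did not overlap in 5 pairs. Leucine showed the widest gap, with Lars at 0.15 and Lars2 at -0.24, and tryptophan (0.31 and -0.01) and arginine (0.02 and -0.22) also had the cytosolic enzyme higher. With chromosome medians subtracted the leucine gap remained, at 0.14 and -0.26. The tryptophan and arginine gaps narrowed, to 0.04 and -0.03 and to -0.01 and -0.05. Serine (Sars at 0.01 and Sars2 at 0.27) was among those that went the other way. The phenylalanine subunits Farsa and Farsb, at 0.31 and 0.22, stood against Fars2 at -0.03. Eprs at 0.17 stood against Ears2 at -0.13 and Pars2 at -0.03.

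**Figure D4:**
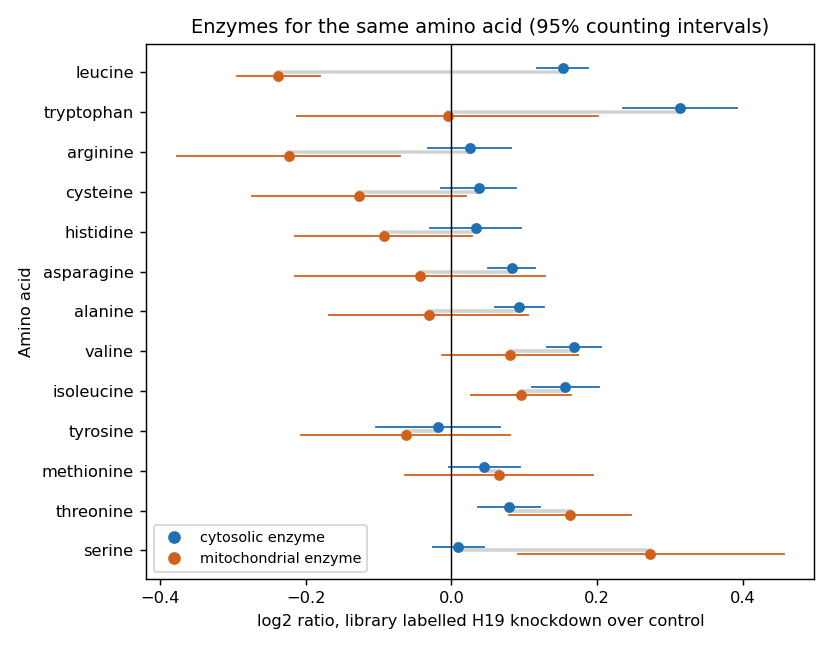
Log2 ratios of the cytosolic (blue) and mitochondrial enzyme (orange) for 13 of the 14 amino acids, with 95% counting intervals, ordered by the difference. The cytosolic ratio is the higher in 10 amino acids, from leucine at the top (0.15 against -0.24), and the mitochondrial ratio in 3 of those shown, down to serine (0.01 against 0.27).

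Genes of the ATF4 and amino acid response, which share their regulator with many cytosolic synthetases, lay on both sides of 0. Of 22 such genes 8 were above and 14 below 0, with a median of -0.07. With chromosome medians subtracted the counts on either side of 0 turned, with 12 above and 10 below 0 and a median of 0.003. The larger differences did not turn: at 1.2-fold 0 were higher and 5 lower after the subtraction. Before it 1 was higher and 5 were lower, where 10.3% and 9.89% of all genes were. Counting intervals before it lay wholly above 0 for 3 and wholly below for 12, where 28.0% and 24.1% of all genes' did. Atf4 itself had 11343 and 10914 reads (-0.06), and asparagine synthetase (Asns) 5578 and 5305 (-0.07). Asns lies on chromosome 6, and with that chromosome's median subtracted its ratio turned to 0.03. Chac1, a glutathione-degrading enzyme, had 530 and 370 reads (-0.52), the stress gene Nupr1 1094 and 861 (-0.35) and Ddit3, the transcription factor CHOP, 2157 and 1752 (-0.30). Ddit3 overlaps Mars over 71 bases. Of the 13 cytosolic enzymes widely reported as ATF4 targets 11 were above 0, with a median of 0.08, and of the 8 others all 8 were, with a median of 0.10. Xpot, the tRNA export receptor and another reported ATF4 target, had 4893 and 5415 reads (0.14). Of the 9 amino acid transporters of the response with at least 100 reads 5 were above 0, with a median of 0.02. Among them were Slc43a1 at 0.38 and the glycine transporter Slc6a9 at -0.40, or -0.23 with its chromosome median subtracted.

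ATF4 binds with C/EBP partners at an element whose core can be written TGATGNAA, and promoters of synthetase genes were searched for these letters on both strands. RefSeq promoter windows (GRCm38.p6), from 250 bases before to 50 bases after a start site, were matched for 30 of 40 members. Among those without a window were Cars, Hars, Lars, Nars, Rars, Vars and Wars. The letters occurred in 5 of 14 cytosolic windows, in 0 of 15 mitochondrial and in 0 of 3 scaffold windows, and in 3.97% of all 32851 windows of this length. The form TGATGCAA occurred in 4 of the 14 and in 0.895% of all windows. In the response genes above, 7 of 25 windows held TGATGNAA. A match describes letters in a window and not a bound site.

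Matches are shown, 1 for each gene, because they mark which synthetase promoters carry the letters, with that of Asns, a known ATF4 target, for comparison. Each line gives 10 bases on either side, 5′ to 3′ on the strand that reads the element forward, and capitals mark the element.
Aars, chr8:111033841-111033868, minus strand: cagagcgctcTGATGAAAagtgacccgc
Gars, chr6:55037961-55037988, minus strand: gcccggtgcaTGATGAAAtagcgcagcc
Iars, chr13:49682127-49682154, minus strand: cgtctggaggTGATGCAAtactgacagt
Tars, chr15:11399656-11399683, plus strand: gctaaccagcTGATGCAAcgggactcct
Yars, chr4:129189896-129189923, plus strand: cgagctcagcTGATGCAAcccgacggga
Asns, chr6:7693215-7693242, minus strand: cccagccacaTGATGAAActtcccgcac

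The elements of Iars, Tars and Yars began or ended within 8 bases of the start site, and those of Gars and Asns lay 23 and 16 bases before it. The element shown for Aars began at base 10 after the start of its window's transcript. That start lies 6064 bases inside the RefSeq span of Aars, which begins further upstream, and the start used for Yars lies 169 bases inside its span. The windows of Gars, Iars and Tars start at the end of the span.

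The 5 genes that carry the letters had log2 ratios from -0.13 (Gars) to 0.16 (Iars), with a median of 0.08 and 3 of 5 above 0. The 9 other cytosolic enzymes with a window ranged from 0.01 to 0.31, with a median of 0.10 and 9 of 9 above 0. Both cytosolic enzymes with a ratio below 0, Gars and Yars, were among the carriers, a point noticed after the values were seen. It did not hold with chromosome medians subtracted: Gars was at -0.04 and Yars at 0.16, and the non-carriers Sars and Mars were both at -0.01. The medians of carriers and non-carriers were then 0.09 (Tars) and 0.08 (Qars). The median control levels of carriers and non-carriers were 70.0 and 68.6 CPM per kilobase of transcript. Per kilobase of coding sequence they lay further apart, at 120 (Tars) and 77.4 (Qars).

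The factors that use the charged tRNAs were compared with the enzymes. Of 7 cytosolic elongation factor genes, counting the kinase Eef2k, 4 were above 0 and 3 below, with a median of 0.04, where 51.9% of all genes were above. The intervals of the 3 below 0 lay wholly below it, among them Eef1b2 with 36918 and 33834 reads (-0.13) and Eef1d with 10565 and 10186 (-0.05). Eef1a1, which delivers charged tRNA to the ribosome, had 437144 and 451187 reads (0.04), Eef2, which moves the ribosome along, 126645 and 139835 (0.14), and its kinase Eef2k 3071 and 3995 (0.38). Of 11 mitochondrial translation factors 5 were above 0 and 6 below, with a median of -0.01. Tufm, the mitochondrial counterpart of Eef1a1, had 4366 and 4616 reads (0.08), Gfm2 1501 and 1670 (0.15) and Mtif3 989 and 885 (-0.16).

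Of 12 accessory genes of tRNA charging 7 were above 0, with a median of 0.02. At 1.2-fold 1 was higher and 2 were lower, close to the 10.3% and 9.89% of all genes. With chromosome medians subtracted 6 of the 12 were above 0 and 0 were 1.2-fold higher. Gatb, Gatc and Qrsl1 form the amidotransferase that makes glutaminyl-tRNA in mitochondria, which lack a glutaminyl-tRNA synthetase, and they were at 0.11, 0.06 and 0.00. Dtd2, which clears mischarged tRNA, had 543 and 689 reads (0.34, or 0.07 with the median of its chromosome subtracted), and Prorsd1 had 509 and 417 (-0.29).

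Overlapping genes bear on single values. Whether counting used strand is unknown here, so reads from a shared stretch cannot be told apart. The RefSeq spans of 10 members overlapped another protein-coding gene, among them Aars with Ddx19b over 3974 bases and Hars with its mitochondrial counterpart Hars2 over 4 bases. Lars2, highest in level and lowest in ratio among the mitochondrial enzymes, overlapped the long noncoding RNA gene Gm46137 over 8819 bases. Without the members whose span overlaps a protein-coding gene or long noncoding RNA gene, 13 of 15 cytosolic and 4 of 11 mitochondrial enzymes were above 0. These are bulk libraries, so fewer cells with an mRNA and less of it per cell cannot be told apart.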

How the data were processed

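The authors deposited raw counts per gene symbol for 1 mRNA library per condition. The series' design text names STAR 2.5.2b for mapping to GRCm38, and per the submitters' processing notes Trimmomatic 0.36 was used as well. The sources used here do not give the counting program, annotation or strand use. The small RNA libraries were not used here.

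Library sizes were adjusted by the TMM method of edgeR 4.0.16, run in R 4.3.3. The log2 ratio added 1 count to each scaled count, and its 95% interval was the exact conditional binomial one, which covers counting error only. PCR copies are not independent molecules. Genes with at least 100 reads in 1 library formed the background. Chromosomes and spans came from RefSeq GRCm38.p6 by symbol or synonym (all 40 members), lengths from GENCODE M1. Ratios and intervals were tested on simulated data. Alternatives were scaling to total counts, size factors from DESeq2 1.42.0, TMM after removing the 10 most counted genes, 0.5 or 5 counts added, other minimums and limits, means, and subtracted chromosome medians. A few single values are not reported here. Leaving out overlapping genes, subtracting chromosome medians in the other gene lists and leaving Tarsl2 out of the spread of levels were added after seeing the data. Members and lists were chosen with earlier results of these data known. All members could be named, and of other lists up to 4 genes with the largest absolute ratio and at least 100 reads, plus Atf4, Asns, Xpot and Eef1e1. Genes outside this rule (the amidotransferase genes, Eef1a1, Tufm, mitochondrially encoded genes, markers and overlapping genes) were named for their role or read count, with values seen.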

Additional observations from a re-analysis of the deposited data

How the results depend on the processing

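Across all settings run, the median log2 ratio of cytosolic enzymes stayed between 0.07 and 0.10 and that of all members between 0.02 and 0.08. With at least 1000 reads required, the mitochondrial median changed sign to 0.080 and the difference between compartments fell to 0.0069, because 10 of 17 mitochondrial genes drop out. Under the other settings the difference lay between 0.11 and 0.12. Scaled to the total count, 18 of 21 cytosolic and 6 of 17 mitochondrial enzymes were above 0, and with chromosome medians subtracted 17 and 7. Members at least 1.2-fold higher numbered 1 with chromosome medians subtracted and 0 at limits of 1.5-fold and 2-fold, where stricter limits admit fewer. Of 240 values of single genes 234 stayed within their counting interval, and 6 moved with chromosome medians subtracted: Gars, Iars, Mars, Rars2, Wars and Yars. Chromosome medians also turned the medians of 3 other lists: the ATF4 response to 0.0030, the eIF2 regulators to -0.056 and tRNA end processing to -0.0047. The distance from a ratio to the ends of its interval, set by read depth, ran from 0.031 to 0.24, so differences below these sizes were not detectable for those genes. No paired analysis was possible because each condition had 1 mRNA library, and for the same reason no library could be left out.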

Other observations

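Genes that process tRNA ends and introns held a mixed pattern: of 19 with at least 100 reads, 10 were above and 9 below 0, with a median of 0.02. The highest ratio was that of Tsen34, a subunit of the tRNA splicing endonuclease, with 2196 and 2699 reads (0.30). Trnt1, which adds the CCA end that synthetases charge, had 4054 and 3329 reads (-0.29, or -0.19 with its chromosome median subtracted), and the ribonuclease P subunit Pop4 had 873 and 704 (-0.31). Among regulators of eIF2, the initiation factor that the amino acid response acts through, 5 of 9 genes were above 0, and 4 of 9 with chromosome medians subtracted. The phosphatase subunit Ppp1r15a had 1935 and 1600 reads (-0.28), eIF2 alpha itself (Eif2s1) 4725 and 5510 (0.22), and the kinase Eif2ak3 1753 and 1557 (-0.17). With chromosome medians subtracted Eif2s1 turned to -0.06 and Eif2ak3 was at -0.07.

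The 2 structural classes of synthetases, which fold differently around the active site, showed similar counts on either side of 0 within each compartment. In the cytosol 8 of 9 class I and 10 of 11 class II enzymes were above 0, with Eprs, which holds both, left out. In mitochondria 3 of 9 class I and 3 of 8 class II enzymes were above 0. Their sizes differed more than these counts: the mean log2 ratio was -0.06 for mitochondrial class I and 0.06 for class II, and the medians were -0.06 and -0.03. The difference was not tested.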
